A study of Mus musculus with 4 samples.

Results

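Kallikreins (Klk genes), Kazal-type inhibitors (Spink genes) and serpins (Serpin genes) were described across the cell classes of the mouse digit. All 102 genes of the 33696 in the files whose symbols begin with Klk, Spink or Serpin (clades A to I) followed by a number were taken, and they comprised 26 Klk, 12 Spink and 64 Serpin genes. Kallikreins are secreted serine proteases that, in the outermost epidermis, cut the junction proteins holding dead cells together so that these cells can be shed. LEKTI, the product of Spink5, blocks them, and its loss causes Netherton syndrome, in which the skin barrier fails. Serpins trap proteases by an irreversible change of shape; clade B serpins act mostly inside cells, while members of other clades circulate or act in the matrix, and Serpinh1 is a collagen chaperone and not an inhibitor.

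The authors profiled digits of amputated mice by droplet single-cell RNA sequencing with unique molecular identifiers (UMIs), in 4 libraries, each made from digits 2 to 4 of 10 pooled female mice aged 6 to 8 weeks, C57BL/6 by the labels and C57BL/6J by the study's methods. The methods amputate the tips of digits 2 and 4 only and cut the collected digits well above the tip, so the pools may hold an uninjured digit and tissue from outside the tip. In the diet pair, mice ate chow that held 30 mg/kg of SAR131675, which inhibits VEGFR3 (SAR131675 diet), or matched chow (control diet), for 8 days by the series' design text; by the methods, feeding began 5 days ahead of the amputation and went on to the end. In the other pair, lymph nodes of one extremity had been removed (LNR) or a sham operation had been done (sham); the study's text makes the opposite limb of the operated mice the sham side, so both libraries may come from the same animals. The study's text places the samples at 8 days after amputation, although one legend names an earlier day for the diet pair, and the labels mark both control libraries as untreated. The drug reached the whole animal and the surgery the whole extremity, so neither is a model of a change in the epidermis alone. Each condition had 1 library and the labels give each a separate batch number. The treatments therefore cannot be told apart from the batches, and there is no replicate check on any difference between libraries.

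Cells with 200 to 5500 genes, at most 30000 UMIs and at most 10% mitochondrial UMIs were kept, which left 19827 to 29076 cells a library, with median UMIs of 11316 and 10712 in the diet pair and 5725 and 5851 in the LNR pair. The upper limits removed 16.2% and 14.3% of barcodes in the diet pair but 2.41% and 2.28% in the LNR pair. The libraries of the diet pair shared 348 barcodes and those of the LNR pair 130. Any library of the diet pair shared 0 to 3 barcodes with any library of the LNR pair, and the cause was not tested. Of the kept cells, 11% to 12% in each library lay in 11 clusters that could not be named and were left out of the classes, among them one of 392 cells of which 387 were from sham. Clusters were made without the member genes and named from marker genes, always as a likeness (granular-like, sebaceous-like); 26 classes had at least 30 cells in every library. The level of a gene in a class is its summed UMIs per 1000000 summed UMIs of that class (CPM), and intervals in parentheses cover counting error only. A change of a level cannot be told apart from a change in the makeup of a class. UMIs of keratinocyte genes were also found in other classes: in neutrophil-like cells the mean of Klk7 was 137 CPM.

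Of the 102 members, 89 had at least 1 UMI in kept cells and 65 had at least 50. The mean over the 4 libraries reached 100 CPM in at least 1 class for 29 members and 20 to 100 CPM for a further 15. Of these 44, 31 were highest in a keratinocyte-lineage class (sebaceous-like cells included), and 15 of them in granular-like cells, the last living layer below the cornified layer. Of the 13 Klk and Spink genes of at least 20 CPM, 12 were led by a keratinocyte-lineage class. Among the members with at least 50 UMIs, 35 (53.8%) had the same highest class in all 4 libraries, against a background of 32.3% of the 21245 genes with as many UMIs. Of the 29 members of at least 100 CPM, 19 had the same highest class in all libraries, and for 13 the lowest library of that class lay above the highest library of the next. No share over all genes of at least 100 CPM was taken for these counts. The counts of members of at least 20 CPM by leading class also have no such background. Whether any of these counts is unusual among genes of that level was therefore not tested. The heat map of classes shows the blocks described in turn. These are granular-like, infundibulum-like and nail-or-wound-like cells for Klk and Spink genes, sebaceous-like cells for a set of serpins, and fibroblast-like and other mesenchymal classes for another set.

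**Figure D1:**
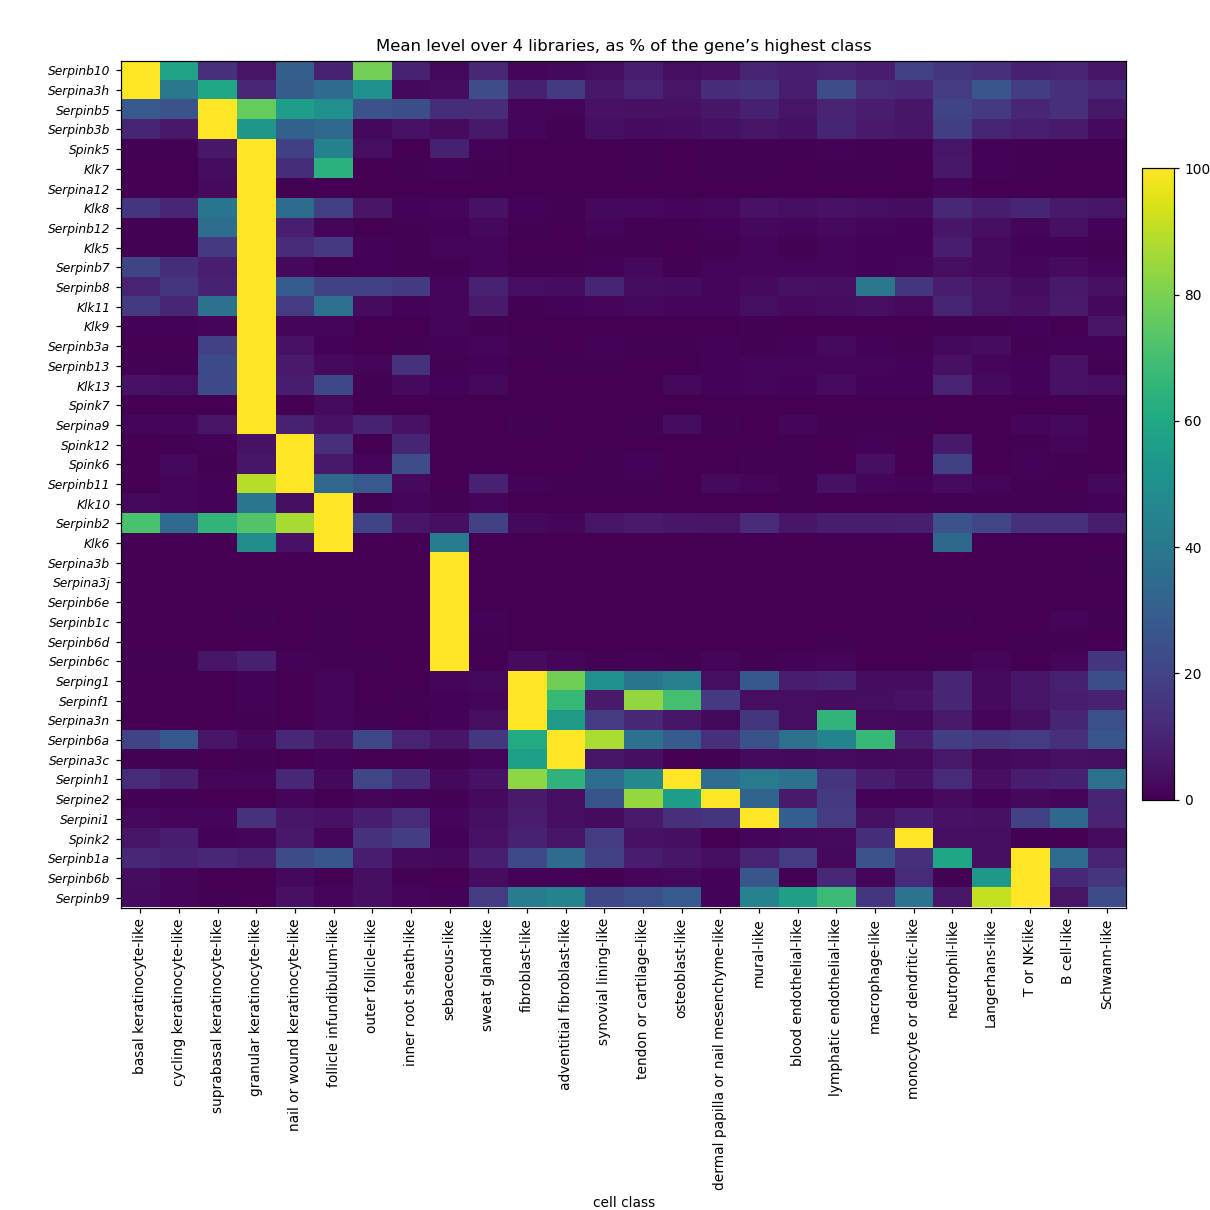
Mean level over 4 libraries of 43 members that reached 20 CPM in a class (rows) in 26 cell classes (columns), as a percentage of each gene's mean CPM in its highest class. The 15 members led by granular-like cells form the tallest block, and the 6 led by sebaceous-like cells have next-class means of 0.541 to 9.55 CPM.

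Most members lie side by side. By the order of protein-coding genes in the RefSeq table for GRCm38.p6, used here only for names and neighbours, 101 members were found and 90 of them fell in 8 runs with at most 3 other coding genes between members. In the run of 26 Klk genes, Klk5 to Klk13 were at one end and all members of at least 20 CPM lay there, while the Klk1b genes at the other end were near 0. Granular-like leadership was interrupted inside this stretch, by Klk6 and Klk10, both led by infundibulum-like cells. In the run of clade A serpins, Serpina9 and Serpina12 (granular-like) came before Serpina3a and Serpina3b (sebaceous-like), then Serpina3c (adventitial-fibroblast-like), and later Serpina3j (sebaceous-like) and Serpina3n (fibroblast-like). One run of clade B serpins, from Serpinb5 to Serpinb8, was led by epidermal classes throughout in the mean over libraries, and the other held genes led by T-or-NK-like, sebaceous-like and mesenchymal classes.

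**Figure D2:**
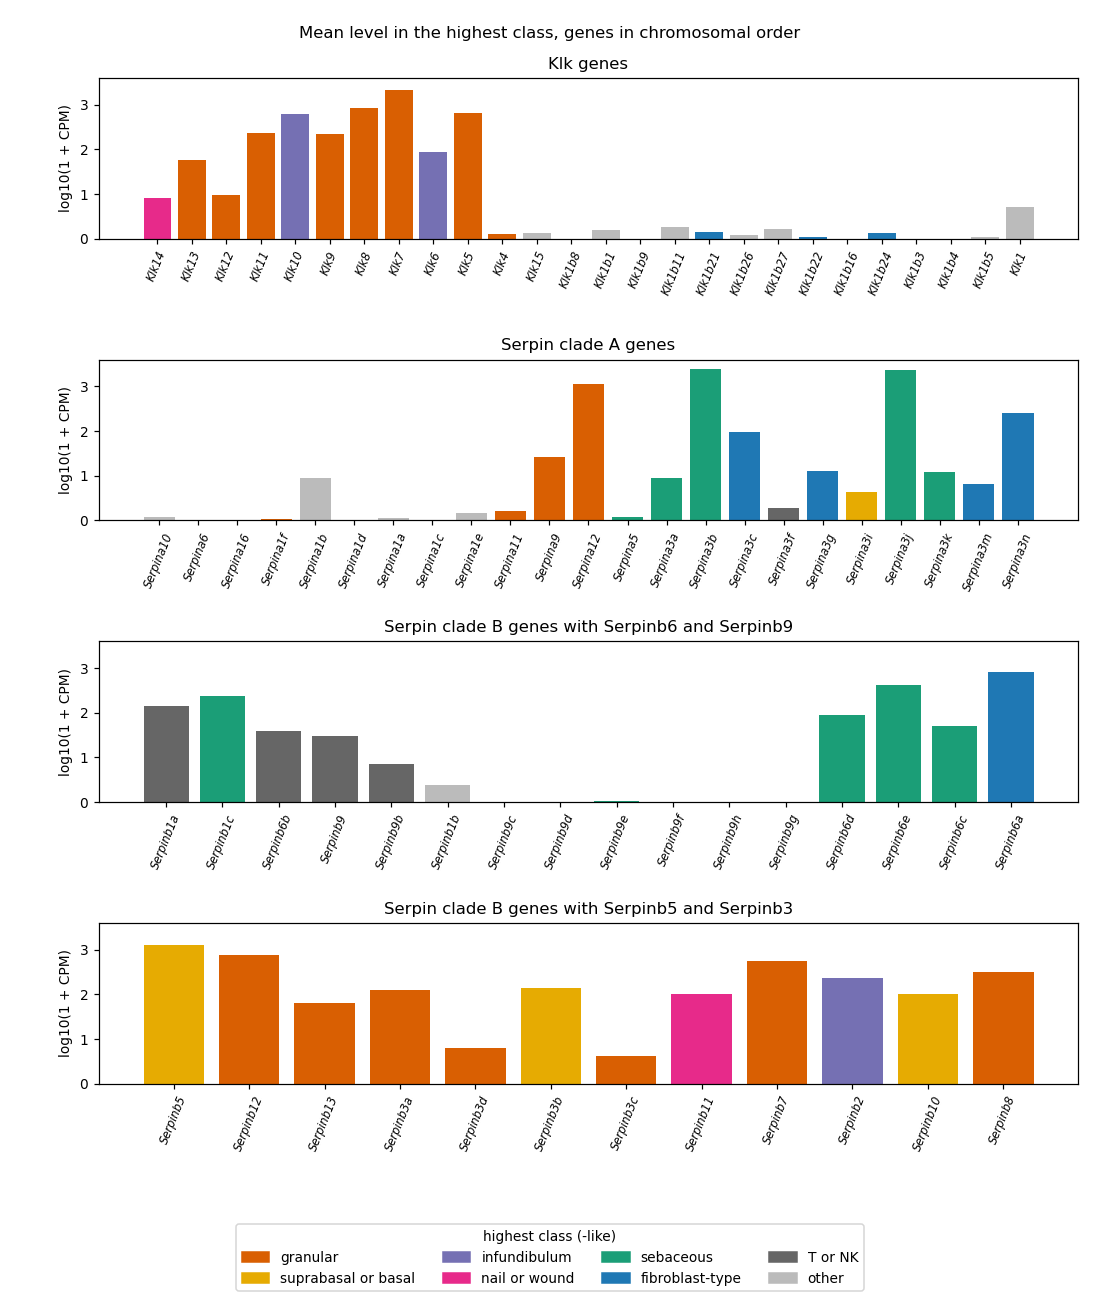
Mean CPM in the highest class, as log10(1 + CPM) from 0, for the genes of the 4 longest runs in their chromosomal order (evenly spaced, not to scale); colours give the highest class. Genes led by granular-like cells lie beside each other in the Klk run, with Klk6 and Klk10 of another colour between them, and the Serpina3 genes have several colours, with Serpina3c of another colour than Serpina3b beside it.

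The promoters of 4 of these neighbours are shown because they carry contrasting patterns: Klk5 and Klk7 share the granular-like class, and Serpina3b and Serpina3c are adjacent copies led by different classes. Each run is the 250 bases before the transcript start from RefSeq (GRCm38.p6, the build of the sequence table and not of the counts), 5′ to 3′ on the gene's strand: Klk5 at chr7:43842019-43842268 (+), Klk7 at chr7:43811044-43811293 (+), Serpina3b at chr12:104127746-104127995 (+) and Serpina3c at chr12:104153873-104154122 (-). Capitals mark matches on either strand to the motif of GATA factors, spelled AGATAA. They also mark those to the motif of KLF factors, for which the letters CCACCC were searched. The AP-1 motif, searched as TGACTCA with its other strand TGAGTCA, was in none of these 4 windows.
Klk5: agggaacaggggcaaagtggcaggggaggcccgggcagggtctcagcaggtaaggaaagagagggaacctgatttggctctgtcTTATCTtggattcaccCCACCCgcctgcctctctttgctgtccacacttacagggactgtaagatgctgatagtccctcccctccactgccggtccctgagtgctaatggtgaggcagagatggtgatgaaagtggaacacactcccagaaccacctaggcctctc
Klk7: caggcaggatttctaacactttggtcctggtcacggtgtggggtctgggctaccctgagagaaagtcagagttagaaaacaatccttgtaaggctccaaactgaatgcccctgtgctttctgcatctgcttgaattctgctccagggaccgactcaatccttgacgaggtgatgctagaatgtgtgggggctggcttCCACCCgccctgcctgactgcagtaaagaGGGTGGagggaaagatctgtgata
Serpina3b: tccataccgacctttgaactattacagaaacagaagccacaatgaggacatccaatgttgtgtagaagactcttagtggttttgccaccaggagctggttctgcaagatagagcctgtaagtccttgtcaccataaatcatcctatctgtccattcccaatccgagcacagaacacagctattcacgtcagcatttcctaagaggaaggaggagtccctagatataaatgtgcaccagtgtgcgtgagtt
Serpina3c: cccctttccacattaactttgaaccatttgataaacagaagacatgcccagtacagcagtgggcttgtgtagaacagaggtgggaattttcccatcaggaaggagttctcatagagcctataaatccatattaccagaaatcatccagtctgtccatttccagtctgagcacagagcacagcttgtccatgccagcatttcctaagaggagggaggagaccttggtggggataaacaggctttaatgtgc
In Klk7, KLF matches began 53 bases before the start on the gene's strand and 24 bases before it on the other, and in Klk5 a KLF match began 150 bases and a GATA match 166 bases before it. The windows of Serpina3b and Serpina3c, with no match, were identical at 173 of 239 aligned bases (72.4%), and the genes were at means of 2407 and 0.483 CPM in sebaceous-like cells and 6.27 and 92.0 CPM in adventitial-fibroblast-like cells. Klk5 and Klk7, with a shared class, were identical at 44.8%, within the range of neighbours that are not close copies. Among the pairs of windows aligned, most of them of neighbours, Serpinb3a and Serpinb3b had the closest windows, at 93.4%, and were led by granular-like and suprabasal-like cells. A window was found for 81 members, and a KLF match stood in 44.7% of their 94 windows, a GATA match in 13.8% and an AP-1 match in 6.38%, against 28.1%, 9.99% and 4.46% of all 32851 windows.

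Among the proteases, Klk7, a chymotrypsin-like kallikrein that degrades corneodesmosin and desmocollin, was highest in granular-like cells, at 3535 CPM in SAR131675 diet, 3195 in control diet, 892 in LNR and 828 in sham. Both libraries of the diet pair lay above both of the LNR pair, and within each pair the libraries were close, with log2 ratios of 0.15 (0.12 to 0.17) for SAR131675 diet over control diet and 0.11 (0.06 to 0.16) for LNR over sham. Infundibulum-like cells, from the funnel of the hair follicle, were second at 2242 CPM in SAR131675 diet, 1858 in control diet, 604 in LNR and 680.0 in sham, so both classes overlapped across libraries, while granular-like cells were higher within every library. In suprabasal-like cells Klk7 was at 6.89 to 145 CPM and in basal-like cells at 1.44 to 5.63 CPM. A Klk7 UMI was found in 68.9% to 95.9% of granular-like cells and in 1.07% to 14.6% of neutrophil-like cells. In cells of at least 2000 UMIs, thinned to that number, these were 52.4% to 93.1% and 0.588% to 9.88%. Shallower cells were left out, here and in the later shares at 2000 UMIs a cell. Left out were 43 of the 205 neutrophil-like cells of SAR131675 diet. In LNR and sham, with medians of 1593 and 1371 UMIs, most neutrophil-like cells were left out. Median depths were 15804 to 20538 UMIs in the granular-like cells and 1371 to 2691 in the neutrophil-like cells.

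Klk5, the trypsin-like kallikrein that activates Klk7, was at 827 CPM in SAR131675 diet, 968 in control diet, 444 in LNR and 418 in sham in granular-like cells. Its mean there was 6.08 times that of infundibulum-like cells, the next class, and every library of granular-like cells lay above every library of the next class. Klk8 (neuropsin), which also acts in shedding of the cornified layer, was at 855 CPM in SAR131675 diet, 864 in control diet, 783 in LNR and 815 in sham, a mean of 829 ± 37.3 CPM (SD, n = 4). This was the smallest SD, relative to the mean, of the Klk genes of at least 20 CPM. Klk8 was also at 101 to 143 CPM in basal-like and 299.9 to 351 CPM in suprabasal-like cells. Klk11 was at 355 CPM in SAR131675 diet, 345 in control diet, 120.1 in LNR and 105 in sham in granular-like cells, and Klk9 at 392 CPM in SAR131675 diet, 425 in control diet, 40.0 in LNR and 41.4 in sham. The diet pair was above the LNR pair for both, by a log2 difference of 1.63 for Klk11 and 3.33 for Klk9. Klk13, at 28.6 to 88.6 CPM, was led by the same class. The plot of keratinocyte classes shows the step from suprabasal-like to granular-like cells in the class levels of Klk5, Klk7 and Klk8. Clusters inside the classes differed less for Klk5 and Klk8. In the diet pair, a suprabasal-like cluster of 889 cells held Klk5 at 886 and Klk8 at 780 CPM. The granular-like cluster held 905 and 860 CPM.

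**Figure D3:**
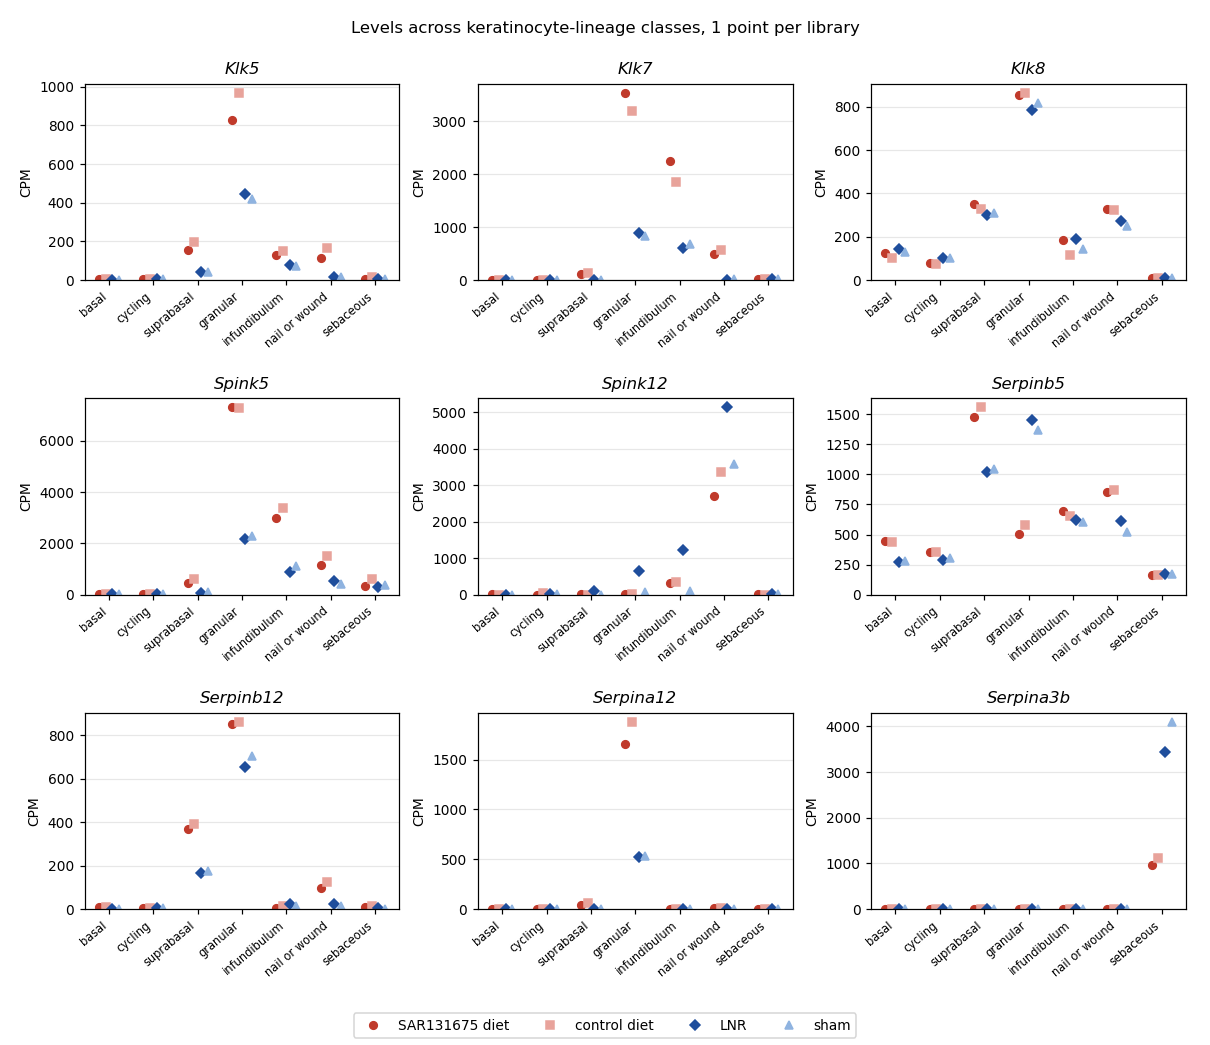
CPM (vertical axis, from 0) of 9 members in 7 keratinocyte-lineage classes, with 1 point per library and colours for the libraries. Klk5, Klk7, Spink5, Serpinb12 and Serpina12 are highest in granular-like cells in all 4 libraries, Spink12 in nail-or-wound-like cells and Serpina3b in sebaceous-like cells.

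A second pattern among the proteases was the follicle. Klk10 was highest in infundibulum-like cells, at 782 CPM in SAR131675 diet, 882 in control diet, 244 in LNR and 538 in sham, with granular-like cells second at a mean of 240.5 CPM. The LNR library was the lowest, and the log2 ratio of LNR over sham within this class was -1.14 (-1.24 to -1.04), past 2-fold. The 10 highest cells held 46.8% to 70.8% of the Klk10 UMIs of the class in a library. Klk6, at 34.6 to 146 CPM in infundibulum-like cells, had the same highest class in the mean but not in every library. Klk14 was highest in nail-or-wound-like cells and Klk12 in granular-like cells, at means of 7.02 and 8.61 CPM. Klk1 (tissue kallikrein) reached a mean of 4.26 CPM, and Klk4 and Klk15 0.299 and 0.338 CPM. The 13 Klk1b genes, mouse copies of tissue kallikrein, had means of at most 0.826 CPM in any class, and 5 of them had no UMI. Klk1b reads from near-identical copies can be discarded or split by the counting, so their low values are uncertain.

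The inhibitor Spink5 was highest in the same class as its targets, at 7298 CPM in SAR131675 diet, 7257 in control diet, 2153 in LNR and 2269 in sham in granular-like cells. It was second in infundibulum-like cells, at 3000.3 CPM in SAR131675 diet, 3360.1 in control diet, 883 in LNR and 1116 in sham, the same order of classes as for Klk7, followed by nail-or-wound-like cells at a mean of 903 CPM. In the diet pair the latter joined a cluster of 316 cells, with Spink5 at 2369 and Klk7 at 1854 CPM, and one of 1373 cells, with 861 and 24.2 CPM, while the LNR pair had a single cluster with 477 and 15.3 CPM. A Spink5 UMI was present in 90.2% to 95.9% of granular-like cells and in 2.13% to 16.6% of neutrophil-like cells, or 72.5% to 93.6% and 0.588% to 8.18% at 2000 UMIs a cell. In granular-like cells, 95.4% to 97.7% of the cells with a Klk7 UMI also had a Spink5 UMI, close to the share of all granular-like cells with Spink5. In infundibulum-like cells this was 88.9% to 94.0%, against 70.2% to 91.1% of all cells of that class.

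The clusters inside the suprabasal-like class differed for these genes. In the diet pair, 4 suprabasal-like clusters of 3888, 2766, 2247 and 889 cells held Spink5 at 68.3, 123, 329 and 3654 CPM, against 7275 CPM in the granular-like cluster. Klk7 was at 4.66, 5.58, 30.2 and 1165 CPM in the same clusters, and at 3346 CPM in the granular-like one. Serpinb12, a clade B serpin of the same layers, was at 727 and 973 CPM in the last 2 of these clusters and at 856 CPM in the granular-like one. In the LNR pair the single granular-like cluster of 871 cells held Spink5 at 2214 and Klk7 at 858 CPM. Its late markers were lower too: Lor, which encodes loricrin, was at 7353 and 6919 CPM in LNR and sham against 40973 and 39190.1 CPM in the diet pair, and Flg (filaggrin) was at 3051 and 3863 against 26602 and 23766 CPM. The part of this difference in class makeup, and of the differing versions of Cell Ranger, in the levels of the members was not tested.

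Spink12 and Spink6, which lie next to each other, shared another class. Spink12 was highest in nail-or-wound-like cells (marked by Krt6a, Krt16 and Krt17), at 2708 CPM in SAR131675 diet, 3370.5 in control diet, 5134 in LNR and 3590.2 in sham. The 4 libraries all lay above every library of the next class, infundibulum-like cells, which ranged from 88.5 to 1232 CPM with LNR the highest. Spink6, an inhibitor of kallikreins in skin, was highest in the same class, at 429.5 CPM in SAR131675 diet, 249 in control diet, 731 in LNR and 356 in sham. LNR was the highest and control diet the lowest of its libraries.

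Both genes were carried by few cells. A Spink12 UMI was found in 14.4% to 21.3% of nail-or-wound-like cells, but the 29 to 80 cells a library with more than 10 Spink12 UMIs, 7.38% to 13.4% of the class, held 99.3% to 99.6% of its Spink12 UMIs. The highest cell of this class had 2399 Spink12 UMIs in SAR131675 diet, 2392 in control diet, 2084 in LNR and 1140 in sham. In the cells with more than 10 Spink12 UMIs, 71.7% to 93.1% also had a Spink6 UMI, against 8.37% to 15.9% of the other cells of the class. These cells were deeper, with medians of 10729 to 19644 UMIs against 6558 to 11111, and they were picked by their Spink12 UMIs, so the shares are a description. In neutrophil-like cells, Spink12 was at 672 CPM in SAR131675 diet, 0 in control diet, 2.63 in LNR and 347 in sham, and in SAR131675 diet a single cell held 699 of the 703 UMIs.

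Of the remaining Spink genes, Spink7 was at 1.37 to 149 CPM in granular-like cells, with 526 and 1331 UMIs in that class in SAR131675 diet and control diet against 9 and 20 in LNR and sham. The diet pair lay above the LNR pair, and its UMIs came from 39 and 56 granular-like cells. Spink2 was the one Spink gene of at least 20 CPM led by a class outside the keratinocytes, at 17.4 to 25.5 CPM in monocyte-or-dendritic-like cells in all 4 libraries, against a mean of 3.96 CPM in the next class. The other 7 Spink genes had means below 20 CPM in every class, and Spink11 had no UMI.

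Serpins of the granular-like class included Serpina12 (vaspin, an inhibitor of Klk7), at 1662 CPM in SAR131675 diet, 1878 in control diet, 521 in LNR and 534 in sham. The next class, suprabasal-like cells, was at a mean of 27.8 CPM and reached 62.9 CPM in its highest library, so the classes did not overlap. Infundibulum-like cells, the second class of Klk7, had a mean of 1.44 CPM of Serpina12. Serpinb12 was at 851 CPM in SAR131675 diet, 861 in control diet, 654 in LNR and 702 in sham in granular-like cells, and Serpinb7 at 867 CPM in SAR131675 diet, 916 in control diet, 231 in LNR and 214 in sham. For Serpinb7 basal-like cells, not suprabasal-like ones, were second, at 82.1 to 156 CPM. Serpinb8 was at 536 CPM in SAR131675 diet, 544 in control diet, 84.5 in LNR and 91.4 in sham. Its level in granular-like cells in the LNR pair was below that of macrophage-like cells, 116 and 116 CPM, which were its highest class there. Serpinb3a, of the squamous cell carcinoma antigen group, was at 90.1 CPM in SAR131675 diet, 119 in control diet, 146 in LNR and 132 in sham, and Serpinb13 and Serpina9 ranged over 25.5 to 109 and 8.97 to 52.7 CPM.

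Other clade B serpins were led by other layers. Serpinb5 (maspin) was at 1474 CPM in SAR131675 diet, 1564 in control diet, 1018 in LNR and 1041 in sham in suprabasal-like cells, where 97.1% to 98.4% of cells had a UMI, at median depths of 9988 to 15740 UMIs, against 12% to 23.9% of neutrophil-like cells; at 2000 UMIs a cell these were 78.8% to 85.2% and 14.1% to 23.5%. In the LNR pair its highest class was granular-like cells, at 1451 and 1370.2 CPM, while the diet pair had 501 and 579 CPM there, below the suprabasal-like level. Serpinb3b was at 199.7 CPM in SAR131675 diet, 195 in control diet, 83.8 in LNR and 77.8 in sham in suprabasal-like cells. Serpinb10 was the member of at least 100 CPM led by basal-like cells, at 103 CPM in SAR131675 diet, 117 in control diet, 92.0 in LNR and 91.4 in sham, with outer-follicle-like cells next at a mean of 79.7 CPM. Serpinb2 (plasminogen activator inhibitor type 2) was spread across the layers: it was at 226 CPM in SAR131675 diet, 336 in control diet, 167 in LNR and 176 in sham in infundibulum-like cells, and its means in nail-or-wound-like, granular-like, basal-like and suprabasal-like cells were 196, 165, 161 and 148 CPM. Its libraries overlapped across these classes, and its highest class in LNR was granular-like cells. Serpinb11, at 67.6 to 122 CPM in nail-or-wound-like cells, and Serpina3h, at 15.1 to 32.3 CPM in basal-like cells, were the remaining serpins of the epidermis of at least 20 CPM. Serpinb3a to Serpinb3d are near-identical copies whose reads the counting may have split, so their separate values are uncertain.

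**Figure D4:**
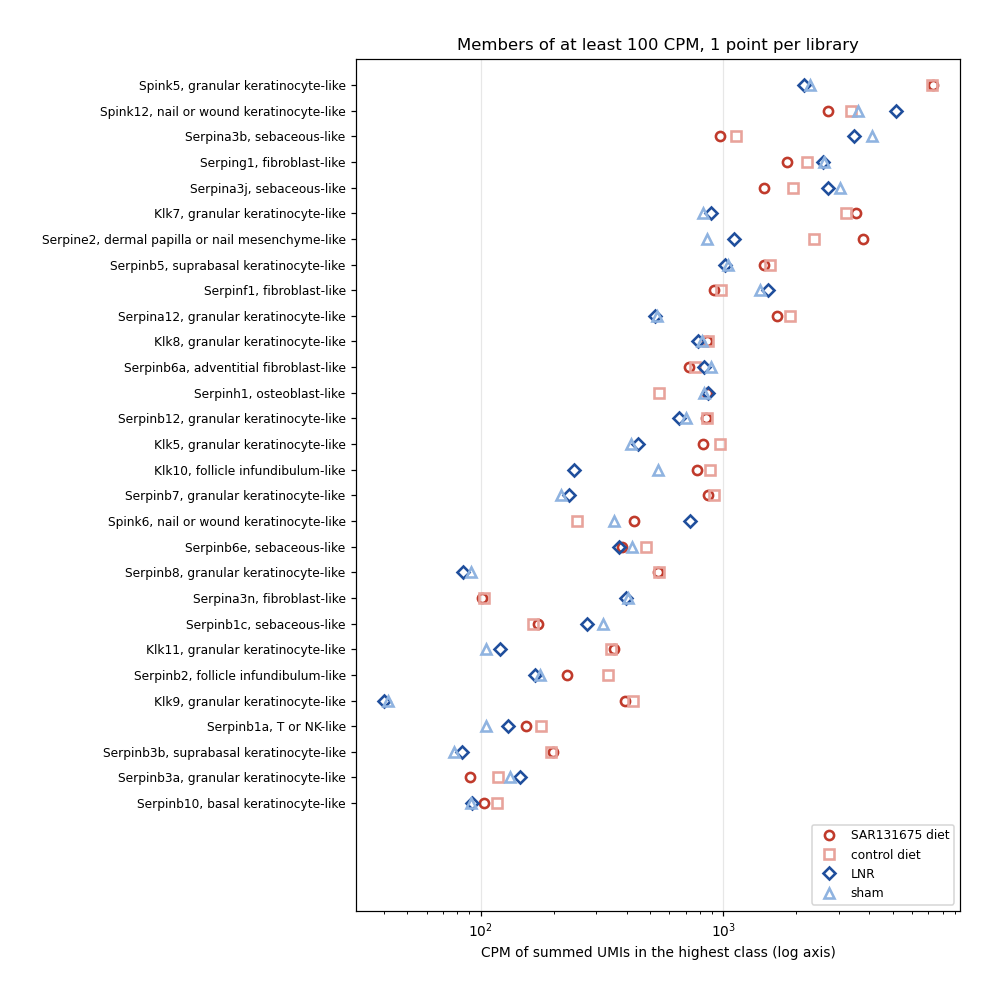
CPM (log axis) of the 29 members of at least 100 CPM in their highest class, with 1 open point per library; the class stands beside the gene. The difference between the pairs exceeds both differences within pairs for 25 genes (86.2%), near the 85.1% of all genes that reached 100 CPM in a class. Klk9 at 40.0 to 425 CPM and Serpinb8 at 84.5 to 544 CPM are the widest in the granular-like class.

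Sebaceous-like cells (marked by Scd1 and Mgst1) carried a set of serpins with low levels in all other classes. Serpina3b was at 968 CPM in SAR131675 diet, 1126 in control diet, 3439 in LNR and 4095 in sham, and its next class had a mean of 9.55 CPM. Serpina3j was at 1472 CPM in SAR131675 diet, 1939 in control diet, 2691 in LNR and 3034 in sham, with 7.97 CPM in the next class. For both, LNR and sham were above both diet libraries, the reverse of Klk7 and Spink5 in granular-like cells. In the LNR pair the class held 2 clusters, and Serpina3b was at 1539 CPM in the one of 490 cells and at 9121 CPM in the one of 197, while the diet pair had a single cluster. Serpinb1c was at 172 CPM in SAR131675 diet, 164 in control diet, 273 in LNR and 319.7 in sham, with the same order of the pairs. A Serpina3b UMI was seen in 54.9% to 80.7% of sebaceous-like cells, at median depths of 11172 to 19053 UMIs, and 1.74% to 3.56% of neutrophil-like cells; at 2000 UMIs a cell these were 36.5% to 60.7% and 0.588% to 2.47%.

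The neighbouring copies Serpinb6e, Serpinb6d and Serpinb6c were led by the same class. Serpinb6e was at 381 CPM in SAR131675 diet, 481 in control diet, 370.2 in LNR and 421 in sham, and the pairs overlapped. Serpinb6d was at 169 CPM in SAR131675 diet, 9.55 in control diet, 51.2 in LNR and 130.4 in sham, the widest spread of the 3, and Serpinb6c at 28.9 CPM in SAR131675 diet, 90.4 in control diet, 33.7 in LNR and 49.8 in sham. These came from few cells: the 10 highest cells held 51.2% to 77.8% of the Serpinb6e UMIs of the class, 89.4% to 96.9% for Serpinb6d and 70.0% to 92.1% for Serpinb6c, against 13.0% to 34.3% for Serpina3j. Serpinb6a, the fourth neighbour and an inhibitor of cathepsin G, had another pattern, at 725 CPM in SAR131675 diet, 764 in control diet, 829.6 in LNR and 889.6 in sham in adventitial-fibroblast-like cells, 701 CPM in the mean in synovial-lining-like and 536 CPM in macrophage-like cells. Near-identical copies of Serpinb6 and Serpina3 may share reads, so the split between copies is uncertain.

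Several other secreted serpins were led by mesenchymal classes, unlike Serpina12, Serpina3b and Serpina3j. Serping1, the C1 inhibitor of the complement and contact systems, was at 1834 CPM in SAR131675 diet, 2207 in control diet, 2576 in LNR and 2607 in sham in fibroblast-like cells and at 1609 to 2037 CPM in adventitial-fibroblast-like cells, so the classes overlapped, and in SAR131675 diet adventitial-fibroblast-like cells were the higher. Serpinf1 (pigment epithelium-derived factor) was at 915 CPM in SAR131675 diet, 982 in control diet, 1526 in LNR and 1423 in sham in fibroblast-like cells, with tendon-or-cartilage-like and osteoblast-like cells next at means of 1017 and 853 CPM. In LNR and sham its highest class was tendon-or-cartilage-like cells. Serpina3n, an inhibitor of leukocyte proteases, was at 101 CPM in SAR131675 diet, 104 in control diet, 396 in LNR and 403 in sham; the LNR pair lay well above the diet pair in fibroblast-like cells, while in adventitial-fibroblast-like cells the LNR pair was the lower, with 119.8 and 122 CPM against 151 and 154. In lymphatic-endothelial-like cells, the vessel type the study acted on, Serpina3n was at 113 CPM in SAR131675 diet, 192 in control diet, 194 in LNR and 159 in sham. These were its highest class in control diet, and adventitial-fibroblast-like cells in SAR131675 diet. Serpina3c, at 58.7 to 128 CPM, was led by adventitial-fibroblast-like cells in all 4 libraries.

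Serpine2 (protease nexin), which blocks thrombin and plasminogen activators, was at 3771 CPM in SAR131675 diet, 2354 in control diet, 1106 in LNR and 856 in sham in dermal-papilla-or-nail-mesenchyme-like cells. SAR131675 diet was the highest library and sham the lowest. Tendon-or-cartilage-like cells, its highest class in control diet, and osteoblast-like cells followed at means of 1704 and 1128 CPM. Serpine2 was also high in unnamed clusters outside the classes. A cluster of 194 cells in the diet pair held 2955 CPM. A cluster of 253 cells in the LNR pair held 1875 CPM, above the leading named class in LNR and sham. Serpinh1 was at 856 CPM in SAR131675 diet, 546 in control diet, 868 in LNR and 832 in sham in osteoblast-like cells, where control diet was the lowest library. Fibroblast-like cells were at a mean of 643 CPM and led in both diet libraries. Serpini1 (neuroserpin) was led by mural-like cells at 34.7 to 76.9 CPM.

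Among leukocytes, Serpinb1a, an inhibitor of neutrophil elastase and cathepsin G, was at 154 CPM in SAR131675 diet, 178 in control diet, 129.8 in LNR and 106 in sham in T-or-NK-like cells and at a mean of 83.3 CPM in neutrophil-like cells. A mast-like cluster was named only in the LNR pair and stood outside the 26 classes, and there Serpinb1a was at 2535 (2414 to 2662) CPM in 229 LNR cells and 2769 (2599.5 to 2947) CPM in 166 sham cells. Of these cells, 95.2% and 93.4% had a Serpinb1a UMI, at median depths of 1702 and 1352 UMIs, and the 10 highest cells held 17.0% and 21.3% of its UMIs, so the level was spread over the class. The pairs were clustered separately, and whether mast-like cells were fewer in the diet pair was not tested. Serpinb6b and Serpinb9, an inhibitor of granzyme B, were led by T-or-NK-like cells at 31.7 to 48.4 and 19.8 to 38.0 CPM. The 58 members under 20 CPM included 13 with no UMI, among them Serpini2, Serpina7, Serpinb9c, Serpinb9d, Serpinb9f, Serpinb9g and Serpinb9h. Serpinc1 (antithrombin), Serpind1 (heparin cofactor) and the Serpina1 genes (alpha-antitrypsin), which are products of the liver, all had means under 20 CPM in every class.

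Across the 29 members of at least 100 CPM, the pairs differed more than the conditions within them. In the highest class, the mean of the diet pair was more than 2-fold above that of the LNR pair for 11 members and more than 2-fold below it for Serpina3b and Serpina3n, a share of 44.8% against 41.5% of all 5481 genes that reached 100 CPM in a class. For 25 of the 29 the difference between pairs was larger than either difference within a pair, against 85.1% of those genes. Both shares were near the background. Pair, depth and version of Cell Ranger change together here and cannot be told apart.

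Within the pairs, the members of at least 20 CPM were compared in their highest class by the rule that a member counts as called when it had at least 50 UMIs in both libraries together, a CPM ratio past 2-fold and a counting interval that excluded no change. Between SAR131675 diet and control diet, 3 of 44 were called, against 1.09% of 11842 genes: Serpinb6d, with a log2 ratio of 4.15 (3.66 to 4.68), Spink7, with -1.02 (-1.17 to -0.87), and Serpinb6c, with -1.64 (-1.95 to -1.34). Between LNR and sham, 4 of 42 were called, against 0.858% of 10375 genes. These included Klk10, with the ratio already given, Spink6, with 1.04 (0.92 to 1.16), and Serpinb6d, with -1.35 (-1.55 to -1.15). Serpinb6d thus lay in opposite directions in the pairs. Each of these genes had its UMIs in few cells, and the 10 highest cells held 69.4% to 96.9% of those called in the diet pair.

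The same rule was then applied to all members with at least 50 UMIs, over 4 groups of classes: keratinocyte-lineage, mesenchymal, endothelial and myeloid. The first of these also held unnamed clusters, with 2.74% to 7.7% of its cells in a library, and the mesenchymal group 17.9% to 23.7%. With named classes alone, all 27 calls were kept. The endothelial and myeloid groups held no unnamed cells, so their calls could not change under this alternative. The diet pair addresses what changed under inhibition of VEGFR3, and control diet is its background. In keratinocyte-lineage classes, 7 of 60 tested members were called, against a background of 2.12% of 18074 genes. Their median log2 ratio was -0.18, against -0.0014 over all tested genes, and 39 of the 60 were below 0. The 4 that follow were higher in SAR131675 diet. Serpinb6d had 788 against 44 UMIs, a log2 ratio of 3.82 (3.38 to 4.29), of which 720 and 35 were in sebaceous-like cells. A group of 10 cells held 698 of the SAR131675 diet UMIs. Spink6 had 7057 against 2672 UMIs, a log2 ratio of 1.06 (0.99 to 1.12). Within nail-or-wound-like cells alone, 1084 in SAR131675 diet and 605 in control diet, its log2 ratio was 0.79 (0.71 to 0.87). In cycling-keratinocyte-like cells, with 12 against 168 UMIs, it was -4.39 (-5.37 to -3.54). Klk14 had 270 against 90 UMIs, a log2 ratio of 1.24 (0.89 to 1.60), with 204 of the SAR131675 diet UMIs in 10 cells, and 0.05 (-0.41 to 0.53) without the cells holding more than 10 UMIs. Serpinb3c had 212 against 57 UMIs, a log2 ratio of 1.55 (1.12 to 2.00), of which 180 SAR131675 diet UMIs lay in 10 cells.

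Of those lower in SAR131675 diet, Spink7 had 563 against 1350 UMIs, a log2 ratio of -1.61 (-1.75 to -1.46), with -1.02 within granular-like cells. Serpinb3d had 248 against 398 UMIs, a log2 ratio of -1.03 (-1.26 to -0.80), spread over 130 and 233 cells, and Spink1 had 19 against 56 UMIs, a log2 ratio of -1.90 (-2.74 to -1.13). Spink5, Klk5, Klk7 and Klk8 were not called, with log2 ratios over the keratinocyte-lineage classes of -0.51 (-0.52 to -0.50), -0.62 (-0.65 to -0.60), -0.24 (-0.25 to -0.22) and -0.06 (-0.08 to -0.05). Within granular-like cells, which were 1.38% of kept cells in SAR131675 diet and 2.22% in control diet, they were 0.01 (-0.01 to 0.02), -0.23 (-0.27 to -0.18), 0.15 (0.12 to 0.17) and -0.02 (-0.06 to 0.03). Each interval lay within 2-fold, though it does not cover the difference between mice or libraries.

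In mesenchymal classes 3 of 42 members were called, against 1.7% of 15666 genes. Spink12 had 254 against 54 UMIs, a log2 ratio of 1.91 (1.48 to 2.36), in 207 SAR131675 diet cells of which the highest held 12 UMIs. Spink6 had 55 against 21 UMIs, a log2 ratio of 1.06 (0.31 to 1.86), in 50 SAR131675 diet cells with at most 3 UMIs each. Serpina1b had 14 against 70 UMIs, a log2 ratio of -2.65 (-3.59 to -1.81), all in 9 cells of each library. In endothelial classes 4 of 27 were called, against 1.18% of 12251: Serpina3n had 220 against 351 UMIs, a log2 ratio of -1.03 (-1.28 to -0.78), Klk7 60 against 119 UMIs, a log2 ratio of -1.34 (-1.81 to -0.88), Klk5 40 against 85 UMIs, a log2 ratio of -1.44 (-2.02 to -0.88) and Spink12 66 against 293 UMIs, a log2 ratio of -2.50 (-2.91 to -2.11). Of the Serpina3n UMIs, 188 and 337 were in lymphatic-endothelial-like cells, within which its log2 ratio was -0.76 (-1.02 to -0.50), not past 2-fold, among 249 and 261 cells. Klk5, Klk7 and Spink12 were led by keratinocyte-lineage classes, and 291 of the 293 Spink12 UMIs of control diet sat in 10 cells. Without the cells holding more than 10 UMIs the log2 ratio of Spink12 turned to 0.95 (0.11 to 1.85). In such control diet cells the summed level of 6 keratins was 33379 CPM for Klk5, 24829 for Klk7 and 20296 for Spink12. It was 2259 to 2341 CPM in the other cells. In such SAR131675 diet cells it was 40734 CPM for Klk7 but 766 CPM for Spink12. The part of keratinocyte RNA was not tested.

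In myeloid classes 5 of 34 were called, against 1.58% of 12877. Among them, Spink12 had 1086 against 13 UMIs, a log2 ratio of 5.89 (5.11 to 6.80), and a single cell held 699 of the SAR131675 diet UMIs. The 5 cells with more than 10 of them had a summed level of 6 keratins of 21988 CPM, against 3135 CPM in the other myeloid-like cells. Spink6 had 144 against 10 UMIs, a log2 ratio of 3.35 (2.43 to 4.45), Klk6 8 against 60 UMIs, a log2 ratio of -3.40 (-4.68 to -2.33), with 59 control diet UMIs in 1 cell, and Serpina12 29 against 68 UMIs, a log2 ratio of -1.72 (-2.40 to -1.08). Without the cells holding more than 10 UMIs the log2 ratio was 0.36 (-0.83 to 1.64) for Spink6 and -1.07 (-1.80 to -0.35) for Serpina12. For Klk6 it turned to 2.50 (-0.40 to 7.97). Those cells were 4 of SAR131675 diet for Spink6 and 1 of control diet each for Klk6 and Serpina12. Their keratin levels were likewise 29322, 17435 and 31861 CPM. The part of keratinocyte RNA or of mixed barcodes in the ratios was not tested.

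The comparison of LNR with sham addresses what changed without the draining nodes, and fewer members and genes were called in it. In keratinocyte-lineage classes 3 of 52 were called, against 0.628% of 14819 genes. Spink12 had 29036 against 11192 UMIs, a log2 ratio of 1.51 (1.48 to 1.55), and 18822 LNR UMIs lay in 10 of 8436 cells, the highest with 3361. Within nail-or-wound-like cells its log2 ratio was 0.52 (0.48 to 0.55); the ratio of the group came also from granular-like cells, with 4203 against 462 UMIs, infundibulum-like cells, with 5689 against 470, inner-root-sheath-like cells, with 3416 against 662, and suprabasal-like cells, with 2185 against 35. Serpinb6d had 293 against 854 UMIs, a log2 ratio of -1.40 (-1.60 to -1.21), the opposite direction to the diet pair, and Serpinb3c 83 against 38 UMIs, a log2 ratio of 1.27 (0.70 to 1.86). Serpinb3c was past 2-fold in the same direction in both pairs in these classes, but without the cells holding more than 10 UMIs its log2 ratios were 0.02 (-0.57 to 0.62) in the diet pair and 0.67 (0.05 to 1.31) in the LNR pair.

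In mesenchymal classes 3 of 35 were called, against 0.473% of 13752. Spink6 had 387 against 51 UMIs, a log2 ratio of 2.74 (2.32 to 3.19), Spink12 931 against 338 UMIs, a log2 ratio of 1.28 (1.10 to 1.46) and Klk5 35 against 62 UMIs, a log2 ratio of -1.01 (-1.65 to -0.39). Spink12 and Spink6 were past 2-fold upward in mesenchymal classes in both pairs, but 10 cells held 95.1% of the Spink6 and 87.0% of the Spink12 UMIs of LNR. Of these UMIs, 272 of Spink6 and 600 of Spink12 were in an unnamed mesenchymal cluster, and with named classes alone the log2 ratios were 1.87 and 1.28. Without the cells holding more than 10 UMIs, Spink6 turned to -0.85 (-1.54 to -0.19) and Spink12 was at 1.12 (0.68 to 1.58). In those LNR cells the summed level of the 6 keratins was 28305 CPM, against 1590 CPM in the other mesenchymal cells, and in the diet pair it was 924 CPM in SAR131675 diet and 735 CPM in control diet outside such cells; the part of keratinocyte RNA in these ratios was not tested. In endothelial classes 1 of 22 was called, against 0.711% of 10833, Spink12 with 98 against 19 UMIs, a log2 ratio of 2.33 (1.61 to 3.13), of which 80 sat in 1 LNR cell and without which the log2 ratio was -0.11 (-1.12 to 0.90). In myeloid classes 1 of 29 was called, against 1.31% of 11959: Serpina3n, with 157 against 67 UMIs, a log2 ratio of 1.05 (0.63 to 1.48). Its UMIs were in 70 LNR and 40 sham cells, and in neutrophil-like cells alone there were 67 against 10. Of the genes led by mesenchymal classes, none of the following was called in myeloid classes, where the log2 ratio was 0.61 (0.50 to 0.72) for Serping1, 0.38 (0.22 to 0.55) for Serpinh1 and 0.13 (-0.01 to 0.26) for Serpinf1. A Serping1 UMI was found in 20.3% of LNR and 11.7% of sham neutrophil-like cells, and the part of mesenchymal RNA in the Serpina3n ratio was not tested. In granular-like cells Spink5, Klk5, Klk7 and Klk8 had log2 ratios of LNR over sham of -0.08 (-0.11 to -0.04), 0.09 (0.01 to 0.16), 0.11 (0.06 to 0.16) and -0.06 (-0.11 to -0.0036), and each interval lay within 2-fold.

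The calls were recomputed under 5 alternatives on cells: a lower clustering resolution, cells placed one by one by marker UMIs, no upper limits on cells, called doublets removed and cells weighted equally. In the LNR pair, 1 of the 8 calls, Serpinb6d in keratinocyte-lineage classes, was kept under all of them. Klk5 in mesenchymal classes was kept under none, with log2 ratios of -0.80 to -0.34 where it was tested. Serpinb3c was lost under 3, at 0.20 to 0.97, and Spink12 in mesenchymal classes under 3, at 0.66 to 0.99. Spink6 in mesenchymal classes fell to 0.64 with cells placed by marker UMIs, and Spink12 in keratinocyte-lineage classes to 0.97 without upper limits. Spink12 in endothelial and Serpina3n in myeloid classes were at 0.89 and 0.91 with cells weighted equally.

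In the diet pair, 6 of the 19 calls were kept under all 5: Serpinb3d, Klk14, Serpinb6d and Spink1 in keratinocyte-lineage classes, and Spink12 in mesenchymal and myeloid classes. Without upper limits on cells, Serpinb3c was at 0.07, Spink6 at 0.86 and Spink7 at -0.74 in keratinocyte-lineage classes. Under the same alternative Klk7, Klk5 and Serpina3n in endothelial classes were at -0.13, -0.45 and -0.90, and Serpina12 in myeloid classes at -0.46, so none of these was called.

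The concentration of UMIs bore on most calls. In 24 of the 27 calls of both pairs, at least 1 cell held more than 10 UMIs of the gene. When such cells were left out of both libraries, which picks cells by the value itself and so is only a description, 9 of the 24 were still past 2-fold in the same direction with an interval excluding no change, and 5 turned in direction. The other 3 calls had no such cell, so their ratios could not change: Spink1 in keratinocyte-lineage and Spink6 in mesenchymal classes of the diet pair, and Klk5 in mesenchymal classes of the LNR pair. Those past 2-fold in the diet pair included Serpinb3d and Serpinb6d in keratinocyte-lineage classes, Spink12 in mesenchymal, Klk5 and Klk7 in endothelial and Serpina12 and Spink12 in myeloid classes; in the LNR pair it was Spink12 in mesenchymal classes. The counting intervals treat UMIs as independent and are too narrow for genes carried by so few cells.

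**Figure D5:**
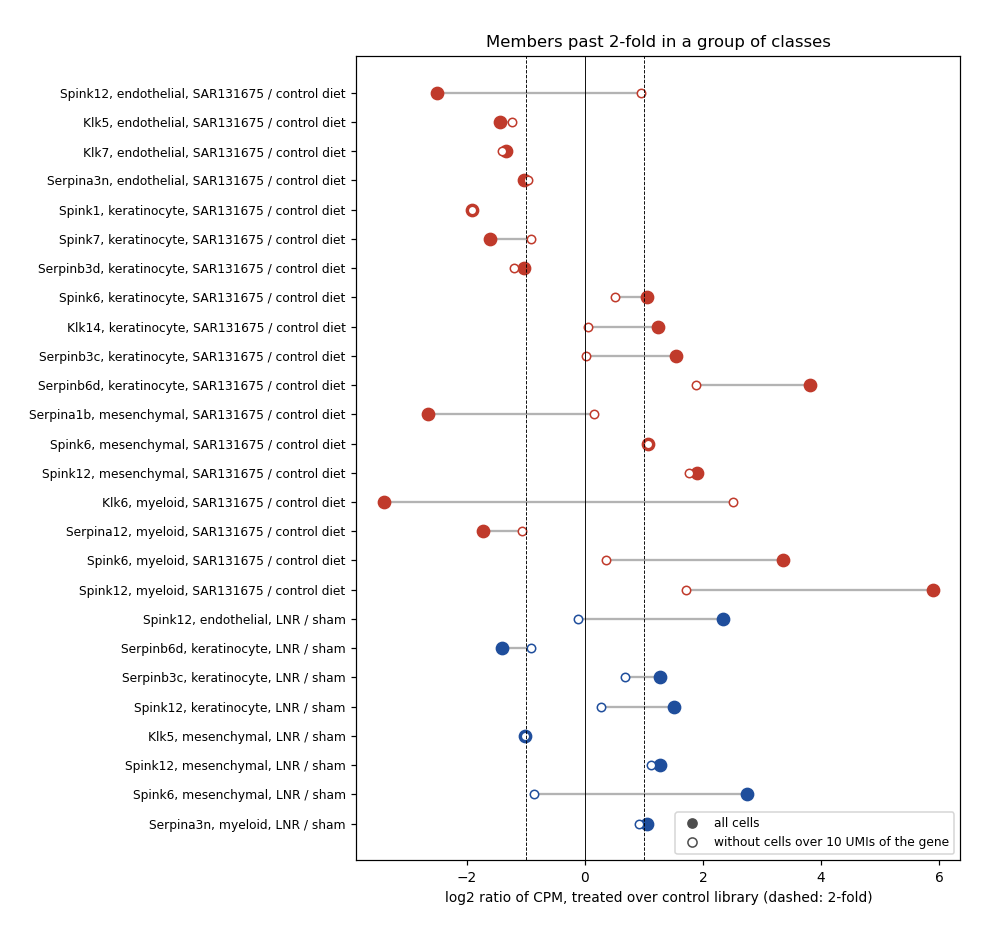
log2 ratio of CPM, treated over control library, of 26 member and class-group combinations past 2-fold (filled points) and of the same without the cells holding more than 10 UMIs of the gene (open points); red is the diet pair, blue the LNR pair and dashed lines mark 2-fold. Several of the widest ratios, such as Spink12 in myeloid classes from 5.89 to 1.72, move toward 0 without those few cells.

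The known targets and partners of the members were taken from 7 lists, and the backgrounds given for each group of classes apply to them as well. Of the 9 kallikrein targets and receptors, 7 reached 100 CPM in a class. Corneodesmosin (Cdsn) and desmocollin 1 (Dsc1), both cut by Klk5 and Klk7, were highest in granular-like cells, at 1172, 1381, 457 and 483 CPM and 1082, 1354, 641 and 603 CPM in SAR131675 diet, control diet, LNR and sham, and so was Flg, at 3051 to 26602 CPM. Desmoglein 1 (Dsg1a and Dsg1b) and Pkp1 were highest in the mean in suprabasal-like cells, one layer below, at 737 to 1383 CPM, 95.5 to 423 CPM and 615 to 1048 CPM. Camp, the cathelicidin that kallikreins process, was highest in neutrophil-like cells, at 1979.7, 5227, 4224 and 8139 CPM. Flg, Cdsn, Dsc1 and Dsg1a were also markers used to name these classes, so their class is no result. No gene of this list was called in keratinocyte-lineage classes in either pair, and Cdsn and Flg were called in myeloid classes in the diet pair, with log2 ratios of -1.32 and -1.48.

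Of 14 other epidermal and airway-type serine proteases, 3 reached 100 CPM. Tmprss11f was at 674, 567, 30.1 and 33.1 CPM in granular-like cells, with the same order of pairs as Klk9, Tmprss4 was at 89.2 to 119 CPM in suprabasal-like cells, and Corin, a marker used to name them, was led by dermal-papilla-or-nail-mesenchyme-like cells. Of 12 other protease inhibitors in the files, 10 reached 100 CPM, and Csta1, Wfdc5, Wfdc12 and Wfdc21 shared the granular-like class, at 375 to 1119 CPM, 76.3 to 147 CPM, 1468 to 2685 CPM and 6156 to 9091 CPM. Cst6, an inhibitor of cathepsins and legumain that is also an infundibulum marker here, was at 47239 to 57483 CPM in infundibulum-like cells, Slpi and Stfa1 were led by neutrophil-like cells, Spint2 by sweat-gland-like, Spint1 by Langerhans-like and Cst3 by osteoblast-like cells. No gene of these lists was called in keratinocyte-lineage classes in either pair. Elsewhere, St14 was called in mesenchymal classes in the diet pair (103 against 29 UMIs). Mcpt4, a marker used to name mast-like cells, was called in myeloid classes of that pair (a log2 ratio of -4.02). It was also called in endothelial classes in LNR over sham (1.34). Cst6 was called downward in the endothelial and myeloid classes of both pairs, with log2 ratios of -1.82 and -1.43 in the diet pair and -1.22 and -1.60 in the LNR pair, although its own class is the infundibulum. Stfa1, Stfa3 and Wfdc12 in the diet pair and Slpi and Wfdc21 in the LNR pair were called once or more outside keratinocyte-lineage classes, at log2 ratios from -1.40 to 1.43.

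The partners of the plasminogen serpins were spread: of 11 genes, 6 reached 100 CPM, with Plat (tissue plasminogen activator, a target of Serpine2) at 182 to 306 CPM in osteoblast-like cells, and Plaur, the urokinase receptor, at 264 to 916 CPM in neutrophil-like cells. F3 (tissue factor) was led by granular-like, Plgrkt by sebaceous-like, Thbd by adventitial-fibroblast-like and Lrp1, the receptor that clears serpin complexes, by fibroblast-like cells at 978 to 1339 CPM. Plaur was called in keratinocyte-lineage classes in the diet pair, with a log2 ratio of 1.16, and no other gene of the list was called in any group of classes. Of 13 cathepsin, granzyme and leukocyte protease targets, 8 reached 100 CPM. Ctss and Ctsb were led by macrophage-like, Ctsl by synovial-lining-like, Ctsk by osteoblast-like and Gzma by T-or-NK-like cells. Casp14 was led by granular-like cells, at 199 to 822 CPM. Elane and Prtn3 were led by neutrophil-like cells in the mean but not in every library. There Elane was at 0 CPM in SAR131675 diet, 13.3 in control diet, 207 in LNR and 301 in sham. Prtn3 was at 190 CPM in LNR and 255 in sham, but below 20 CPM in both diet libraries. Both thus reached 100 CPM through the LNR pair only. In keratinocyte-lineage classes Elane, Prtn3 and Ctsg were called in LNR over sham, with 69 against 0, 91 against 34 and 71 against 3 UMIs; all 3 are genes of neutrophil precursors. In the diet pair Ctss was called in mesenchymal (1.85) and Elane in myeloid classes (2.11). Since Elane was at 0 CPM in neutrophil-like cells of SAR131675 diet, its 73 myeloid UMIs in that library came from other myeloid classes.

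Of the 8 complement and contact proteases that Serping1 blocks, C1ra and C1s1 reached 100 CPM, and both were led by fibroblast-like cells, as Serping1 was, at 185 to 255 CPM and 252 to 464 CPM. Of 11 collagen clients and partners of Serpinh1, 10 reached 100 CPM. Col1a1, Col1a2 and Col5a2 were led by osteoblast-like cells, the class of Serpinh1, at 6943 to 10272 CPM, 6964 to 9554 CPM and 905 to 1074 CPM, Col3a1 by fibroblast-like, Col5a1 by adventitial-fibroblast-like, Col4a1 and Col4a2 by mural-like, and P4ha1, P4ha2 and Plod2, enzymes that modify collagen, by tendon-or-cartilage-like cells. Col1a1, Col1a2 and Col3a1 were also markers used to name fibroblast-like cells, so their class is no result. No gene of these 2 lists was called in keratinocyte, mesenchymal or endothelial classes in either pair. Masp1 and Col4a2 were called in myeloid classes in LNR over sham, with log2 ratios of 1.59 and 1.23.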

How the data were processed

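Droplet libraries (10x Genomics Single Cell 3' v3) were made from collagenase and dispase digests of pooled digits, one library for each of the 4 conditions. The deposited matrices hold raw UMI counts per gene and filtered barcode, which the authors made with Cell Ranger; the submitters' processing notes name version 6.1.2 and the build GRCm39, while the file headers name 6.1.2 for LNR and sham and 8.0.1 for both diet libraries. The intron setting is not given in the sources used here; the later version counts intronic reads by default and the earlier does not, and the effect of this on the values was not tested.

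Cells of all libraries were kept at the limits the study states for its LNR experiment. Cells of each pair were scaled to one total, and 2000 variable genes without the members gave 30 components, 20 neighbours and Leiden clusters at resolution 1.5 (scanpy 1.11.5, Python 3.11.15). Clusters were named by the summed level of fixed marker lists. The rule of scoring was chosen after cluster sizes and leading genes had been seen. Doublets were left in, and Scrublet called 4.67%, 0.907%, 7.41% and 6.97% of cells in SAR131675 diet, control diet, LNR and sham. The rates expected from the cell numbers were 23.3%, 19.2%, 15.9% and 16.5%. Removing the called doublets may therefore have left many in place, above all in control diet. UMIs were summed by class and library and divided by the class total (CPM). Intervals are 95% and exact (Poisson for a level, conditional binomial for a ratio, scipy 1.17.1) and cover counting error only. With 1 library a condition no test across samples was possible and no p-value is given. The ratio intervals and the choice of the highest class were tried on simulated independent counts. These lack the gathering of UMIs in few cells, so they cannot show how the intervals behave there. Clustering and naming were not simulated.

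The members, the partner lists and the motifs were chosen with earlier results of these data known. Members of at least 100 CPM in a class (mean of 4 libraries) are named with every library's value, those of 20 to 100 CPM with a range and the others as counts; called members are named with both values, and partners where they reached 100 CPM or were called. Alternatives changed the clustering, the placement of cells, the limits on cells, doublets, the weighting of cells, the minimum of UMIs and the scaling. One member that these rules would name is in the counts but is not reported here.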

Additional observations from a re-analysis of the deposited data

Results flagged for a closer look

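Serpinb6d moved in opposite directions in the treatment pairs. In keratinocyte-lineage classes its log2 ratio was 3.82 for SAR131675 diet over control diet and -1.40 for LNR over sham, and in sebaceous-like cells alone it was 4.15 and -1.35. Without the few cells holding more than 10 UMIs the ratios in keratinocyte-lineage classes were 1.89 (1.24 to 2.59) and -0.91 (-1.44 to -0.40), the latter not past 2-fold. Spink12 in endothelial classes had log2 ratios of -2.50 in the diet pair and 2.33 in the LNR pair, but without the few cells holding more than 10 UMIs these were 0.95 (0.11 to 1.85) and -0.11 (-1.12 to 0.90), and with cells placed by marker UMIs the diet ratio was 2.94. These are 1 library against 1 in each pair, and the difference between the pairs was not tested.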

How the results depend on the processing

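The number of members of at least 100 CPM (29) ranged from 26 to 32 over the alternatives, and the number with the same highest class in all 4 libraries (35) from 32 to 38, or 36 to 40 with each library left out in turn. The number called in the diet pair (19) fell to 11 with at least 200 UMIs, since fewer members were tested, and in the LNR pair (8) it was 5 with at least 200 UMIs and 15 with at least 10. Of the calls in the LNR pair, 2 were kept with cells placed by marker UMIs, 3 with cells weighted equally, 4 without called doublets, 5 without upper limits and 5 at 200 UMIs; of those in the diet pair, 11 to 19 were kept over all alternatives. Spink12 in endothelial classes turned to a log2 ratio of 2.94 in the diet pair with cells placed by marker UMIs; the cause was not tested. Of 229 recomputed ratios of called members, 189 stayed alike, 39 moved and 1 was reversed. The 189 include ratios that could not move, since a changed minimum of UMIs leaves each ratio as it was. Their number is therefore no measure of how stable the ratios are. With the cluster found almost only in sham added, an alternative chosen after seeing the data, 7 of the 8 calls of the LNR pair were kept. With named classes alone, also chosen then, all 19 and 8 calls were kept, though those in endothelial and myeloid classes could not change. No paired analysis was possible because each group has 1 library. Depth limits members under 20 CPM in every class, whose highest class and ratios rest on few UMIs.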
